A study of Mus musculus with 12 samples.

Results

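Cells that switch on the kinase ERK also make RNA for proteins that switch it off again, and 10 such genes are described here: the MAP kinase phosphatase genes Dusp1, Dusp2, Dusp4, Dusp5 and Dusp6, the Sprouty genes Spry1 and Spry2, the Spred genes Spred1 and Spred2, and Etv1, an ETS transcription factor gene. They were chosen by symbol as known feedback members of the pathway, and all 10 were found among the 30994 genes counted. The cells were SIM-A9, a spontaneously immortalised mouse microglial line labelled as C57BL/6, and microglia are the macrophages that reside in the brain. Every culture first had polymyxin B, which neutralises bacterial endotoxin, at 10 µM for 1 h. It was then given C13 at 10 µM or the solvent DMSO for 1 h. C13 is named in the series title as an inhibitor of the kinase MOK. Aggregates of TDP-43, an RNA-binding protein that clumps in motor neuron disease, or sham aggregates followed at 5 µg/mL for 4 h in all, and 4-thiouridine at 100 µM was present in the last 90 min of these. The 4 groups, called here DMSO sham, DMSO TDP-43, C13 sham and C13 TDP-43, held 3 libraries each. The labels call these biological replicates of 1 cell line and do not say whether they were separate cultures on separate days, so p-values measure the spread between these libraries.

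In this pathway growth factor and colony-stimulating factor receptors act through Ras, RAF and MEK to phosphorylate ERK. Active ERK switches on genes within minutes, and among them are those of its own brakes. DUSP1, DUSP2, DUSP4 and DUSP5 are nuclear phosphatases that are made in response to stimulation, and DUSP6 is a cytoplasmic phosphatase that acts mainly on ERK. Sprouty and Spred proteins act further up, on the steps from the receptor to RAF, and Spred proteins bring the Ras-inactivating protein neurofibromin to the membrane. ETV1 belongs to the PEA3 group of ETS factors, whose RNA is a common readout of ERK activity. In microglia, ERK acts downstream of the receptor CSF1R, on which microglia depend for survival and growth.

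RNA from many immediate-early genes is short-lived, and the pentamer AUUUA in a 3′ untranslated region (UTR) is a known mark of such RNA. Since the assay below separates new from older RNA, the densest 30-base stretch of this pentamer is printed for 5 members. They span the range of nascent share, apart from Dusp1, which had too few reads to be ranked. All stretches are in GRCm38, 5′ to 3′ on the gene's own strand, as DNA, with ATTTA in capitals.
Dusp2 (chr2:127337998-127338027, plus strand): aaattaATTTAattaattaATTTActatat
Dusp1 (chr17:26506156-26506185, minus strand): gctggtccttATTTATTTAacacccccctc
Dusp6 (chr10:99267420-99267449, plus strand): ttttgagctggaATTTAttataagaatgta
Spred1 (chr2:117179570-117179599, plus strand): taagaaagcATTTAtATTTAtatgacagct
Etv1 (chr12:38866925-38866954, plus strand): tgctgaATTTAttatgaccATTTAtaagca
The Dusp2 UTR, of 581 bases, held 4 pentamers, or 6.88 per kb, and the Dusp1 UTR, of 690 bases, held 4, or 5.80 per kb. Over 9292 expressed genes the median was 1.36 per kb, and 72.1% held at least 1. The density of Dusp2 exceeded that of 97.8% of those genes. Etv1 (3.39 per kb over 4715 bases) and Spred1 (2.77 per kb over 4330 bases) held 16 and 12 pentamers. Dusp6 (0.84 per kb) and Dusp5 (0.90 per kb) held 1 each and lay under the median. A match describes these letters and says nothing on how long the RNA lasts.

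The start sites were searched too, in RefSeq windows of 300 bases (GRCm38.p6) that were found for 9 members, all but Dusp4. The motifs were the cyclic AMP response element TGACGTCA, the AP-1 site TGANTCA, the ETS site CCGGAAG, all on both strands, and the CArG box bound by serum response factor. They occur in 1.79%, 7.81%, 8.86% and 1.63% of 32851 such windows. Among the 9 members, Dusp1 and Dusp5 held a match, and 60 bases around each are printed with the motif in capitals, 5′ to 3′ on the gene's strand.
Dusp1 (chr17:26508582-26508641, minus strand): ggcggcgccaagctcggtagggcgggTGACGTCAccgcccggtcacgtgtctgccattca
Dusp5 (chr19:53529043-53529102, plus strand): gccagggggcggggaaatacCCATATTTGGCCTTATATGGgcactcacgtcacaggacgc
The Dusp1 match is a cyclic AMP response element that begins 143 bases before the start site. The Dusp5 match is a pair of adjoining CArG boxes that begin 82 bases before it. Neither is shown here to be bound or used.

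SLAM-seq was the assay: 4-thiouridine enters RNA made during the pulse, is alkylated with iodoacetamide, and is then read as a changed base, so that reads can be sorted into nascent and other. Libraries were made from mRNA 3′ ends, so that levels of different genes can be compared without a correction for length. Depth ran from 17436397 to 41779882 reads a library, and the nascent part from 552042 to 2722812 reads. All levels are in CPM, the reads of a gene scaled to a common library size within each table. C13 sham replicates 2 and 3 stood apart: they lay at opposite ends of the first principal component of total RNA, at -57.4 and 44.2. Replicate 3 of C13 sham had the lowest nascent share of all reads (1.88%). Its share of mitochondrial ribosomal RNA was the highest (3.70%, against 1.17% to 2.52% elsewhere). DMSO sham replicate 2 had the highest nascent share of all reads, at 7.11%, where the other 11 libraries ran from 1.88% to 3.40%. Of 16 microglia and macrophage markers, 14 had a mean of at least 1 CPM, and their summed level ran from 1533 to 2747 CPM over the libraries. Tmem119 (0.510 CPM) and C1qa (0.442 CPM) were the exceptions. Gfap, Snap25, Mog, Dcn and Cdh5, defining markers of astrocytes, neurons, oligodendrocytes, fibroblasts and endothelial cells, had 0 reads, although Aldoc (216 CPM), Kdr (121 CPM) and Mbp (21.8 CPM) from these lists were expressed above the median gene.

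In total RNA the members spanned a wide range. Spred1 was the most abundant at 86.1 CPM ± 18.7 (SD, n = 12), and Etv1 followed at 59.96 CPM ± 16.5 (SD, n = 12). Against these, the median of the 11827 genes tested in total RNA was 18.1 CPM. The next members lay close together: Spred2 at 12.5 CPM ± 4.81 (SD, n = 12), Dusp4 at 10.3 CPM ± 5.25 (SD, n = 12) and Dusp2 at 7.31 CPM ± 1.81 (SD, n = 12). Dusp5 at 5.90 CPM ± 2.67 (SD, n = 12) and Dusp6 at 5.71 CPM ± 2.61 (SD, n = 12) closed this middle group. Within it, each pair of neighbours in the order differed by less than the larger of their SDs. Spry2 was lower, at 1.49 CPM ± 0.712 (SD, n = 12). Spred1, Etv1 and these middle members had reads in all 12 libraries, as did Spry2.

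**Figure D1:**
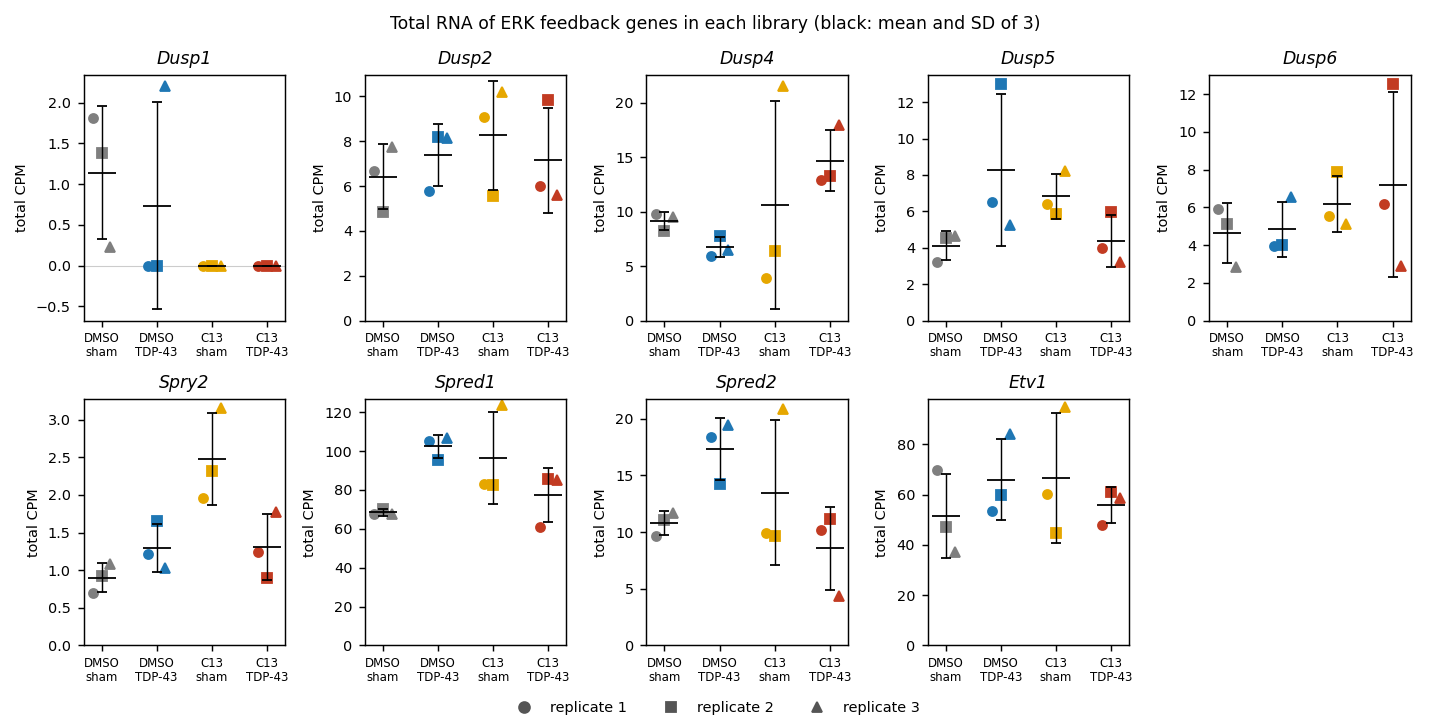
Total RNA of 9 members (Spry1 is left out) in each library, in CPM on linear axes, by group; points are libraries, with replicate numbers by shape, and black bars are the mean and SD of 3. Dusp1 is at 0 in all 6 C13 libraries, and C13 sham replicate 3 (yellow triangle) is the highest library for Dusp2, Dusp4, Spry2, Spred1, Spred2 and Etv1.

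Dusp1 and Spry1 were close to absent. Dusp1 had 57, 51 and 9 reads in the DMSO sham libraries and 69 in DMSO TDP-43 replicate 3, and 0 in the other 8 libraries, which include all 6 with C13. Its counts were all multiples of 3, which leaves 19, 17, 3 and 23 once that factor is divided out. Such a factor was shared by the counts of 1917 of the 9933 genes with a mean of at least 50 reads, and the labels give no reason for it. A count of 0 allows up to 0.172 CPM in the shallowest C13 library, taking 3 separate reads as the limit and counting error only. If each step of 3 is 1 separate read, the limit is higher by that factor. It then exceeds, in that library, the 0.233 CPM of DMSO sham replicate 3. Over its GENCODE span of 56539 bases, Dusp1 also overlaps 2 annotated genes on its own strand and 2 on the other. That span runs far upstream of the RefSeq start window used above, so the 2 annotations differ. Whether a neighbour lies at the 3′ end, where these libraries are read, was not checked, so a part of the reads may belong to one. Spry1 had 9 reads in C13 TDP-43 replicate 1, all nascent, and 0 in the other 11 libraries. As this is its single count above 0, it was too low for the tests across genes.

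The nascent share, the nascent reads of a gene as a percent of its total reads, was ranked for 7 members, and among these it was highest for the 4 phosphatases. For Dusp2 it averaged 31.2% ± 17.7 (SD, n = 12), above 99.8% of the 9933 genes with a mean of at least 50 reads, whose median was 2.65%. Dusp6 averaged 10.1% ± 11.6 (SD, n = 12), above 96.8% of those genes. Dusp5 (7.58% ± 6.78, SD, n = 12) and Dusp4 (7.57% ± 5.56, SD, n = 12) lay above 93.6% and 93.5%. By this mean over libraries all 4 ranked phosphatases lay above 6.20%, a value that 10% of those genes exceed. The medians over libraries were 6.20% for Dusp6, 5.97% for Dusp5 and 5.82% for Dusp4, none above that value, and the mean of Dusp5 was 5.92% without DMSO TDP-43 replicate 2. The Spred genes were nearer the middle: Spred2 averaged 4.38% ± 2.96 (SD, n = 12) and Spred1 3.08% ± 2.13 (SD, n = 12). Etv1 averaged 2.56% ± 2.96 (SD, n = 12), at the 47.9th percentile. These ranks compare genes within the same libraries, are a description, and carry no test. Shares were not corrected here for how many uridines the counted reads of a gene hold, and the rule for calling a read nascent is not given. A rank may thus reflect more than the amount of new RNA. Summing reads over the 12 libraries gave 32.9% for Dusp2, 11.6% for Dusp6, 10.4% for Dusp5, 6.09% for Dusp4, 4.94% for Spred2, 2.85% for Spred1 and 2.16% for Etv1. Spry2, with 565 total reads in all, was too low to be ranked, but its mean share of 16.5% ± 14.8 (SD, n = 12) and its summed share of 21.4% were above those of Dusp4, Dusp5 and Dusp6.

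**Figure D2:**
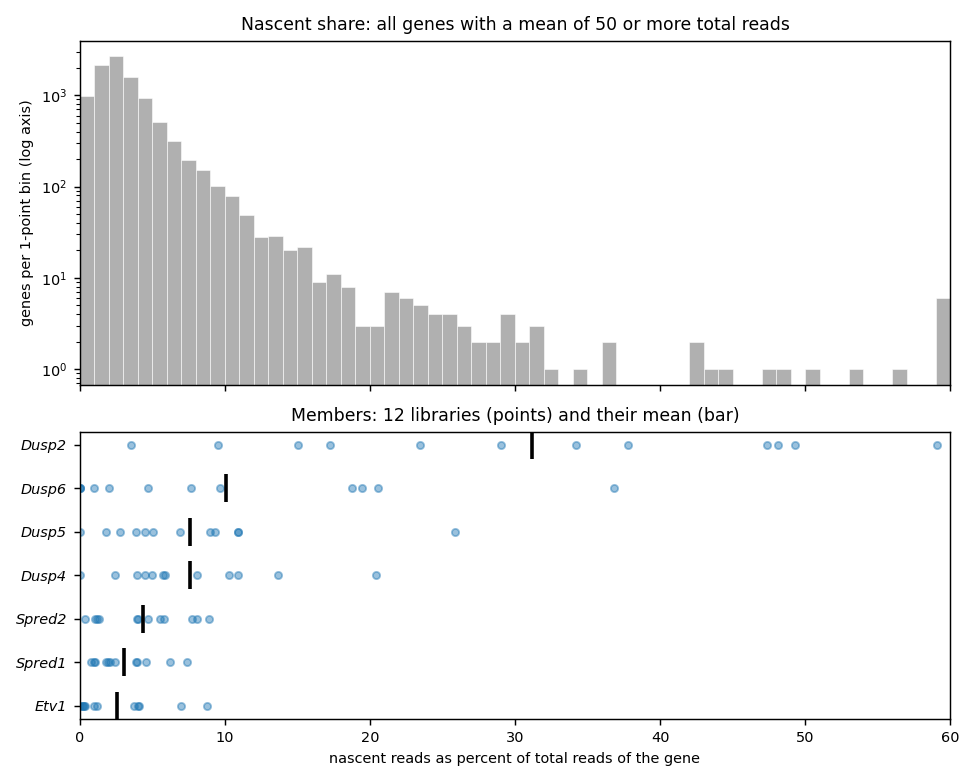
Nascent share in percent. The upper panel counts genes with a mean of at least 50 total reads per 1-point bin on a log axis, with the last bin holding all genes above it; the lower panel shows 7 members, a point for each of 12 libraries and a bar for the mean, from Dusp2 at 31.2% to Etv1 at 2.56%.

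The share varied widely between libraries for the phosphatases. For Dusp2 it was 47.4%, 29.1% and 48.2% in DMSO sham, and 34.2%, 37.8% and 3.53% in DMSO TDP-43. It was 9.55%, 17.3% and 23.5% in C13 sham, and 49.3%, 59.1% and 15.03% in C13 TDP-43. The 3 C13 sham libraries thus lay under the 3 DMSO sham libraries, while the TDP-43 groups overlapped. Of 9492 genes whose share could be set in every library, 15.1% were lower without overlap in C13 sham in the same way. The nascent share of all reads was itself 3.20%, 2.85% and 1.88% in the C13 sham libraries and 3.40%, 7.11% and 2.74% in the DMSO sham libraries, and its part in the Dusp2 values was not tested. The lowest value rests on 9 nascent of 255 reads, with a 95% Clopper-Pearson interval of 1.63% to 6.59%, and the highest on 208 of 352 reads, with an interval of 53.8% to 64.3%. Such intervals cover counting error only, and the spread between replicates was far larger. Dusp6 ran from 0% in 3 libraries to 36.8% in DMSO sham replicate 2. That library, with 7.11% of all its reads nascent, also held the highest share of Dusp4, at 20.4%.

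Dusp2, an inducible phosphatase known from activated immune cells, had a high nascent share, as did part of the other ERK targets. Of 30 further ERK target genes 21 could be ranked. Their median share was 6.68%, with 11 above 6.20% and 4 at or under the median of all genes. The highest, named after their values were seen, were 48.2% for Zfp36, 47.2% for Ier3, 29.4% for Phlda1, 25.3% for Ier5, 24.9% for Plk2, 21.4% for Junb and 13.9% for Jun. At the other end, Fosl1 was at 2.25%, Elk4 at 2.59% and Elk3 at 1.41%. Egr1, a classical ERK target, was listed at 0 reads in all libraries, and Fos averaged 0.381 CPM. The other PEA3 factors differed from Etv1 in level: Etv5 averaged 270.1 CPM with a nascent share of 2.73%, and Etv4 averaged 5.39 CPM with 1.57%. Of the other MAP kinase phosphatases, Dusp3 was far above the members, at 396.8 CPM, and Dusp16 reached 53.9 CPM with a nascent share of 7.42%. Dusp9 and Ptprr had 0 reads.

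The design asks whether C13 or TDP-43 aggregates change these genes. No member passed an adjusted p of 0.05 in edgeR's quasi-likelihood test in any of 7 comparisons, in either table. DESeq2 called 0 members as well, while it called 7 to 108 genes in all, depending on the comparison and table. The filter on low counts kept 9 members in total RNA (all but Spry1) and 7 in nascent RNA (all but Dusp1, Spry1 and Spry2). The background was near empty too: edgeR called 0% of 7078 nascent and 0% of 11827 total genes in each of the comparisons, apart from 0.0141% of nascent genes for TDP-43 against sham averaged over both drugs. The values below therefore describe levels and their spread, with unadjusted p-values beside adjusted ones. Each comparison of C13 with DMSO shares its libraries with the comparisons of TDP-43 with sham.

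C13 was compared with DMSO in TDP-43 aggregate-treated cells first. In nascent RNA the largest difference was that of Etv1. Nascent Etv1 was 70.3, 20.3 and 208.1 CPM in the DMSO TDP-43 libraries and 0, 6.48 and 7.25 CPM in those with C13. The 2 groups did not overlap, and the C13 libraries were uniformly low. They rest on 0, 8 and 6 nascent reads among 1188, 2190 and 2029 total reads, while DMSO TDP-43 had 42, 31 and 108 nascent reads. The log2 fold change was -4.39 (SE 1.55, unadjusted p = 0.0110, adjusted p = 0.990 in edgeR, adjusted p = 0.111 in DESeq2). Etv1 was the 1 of 7 tested members with an unadjusted p under 0.05, against 4.59% of all genes, and the 1 without overlap, against 10.4%. Without DMSO TDP-43 replicate 3, the highest library, the log2 fold change was -3.24 (unadjusted p = 0.0563, edgeR).

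Total Etv1 showed no such gap. It was 53.6, 59.98 and 84.1 CPM in DMSO TDP-43 and 47.7, 61.2 and 58.8 CPM in C13 TDP-43, so that the groups overlapped. With sham aggregates, nascent Etv1 was 67.6, 41.3 and 12.9 CPM with DMSO and 3.38, 138.0 and 11.9 CPM with C13. Here 2 of 3 C13 libraries were low and replicate 2 was high. Of the 12 libraries, the 5 with the least nascent Etv1 all had C13, an order noticed in the values and not tested. Averaged over both aggregates, the log2 fold change of nascent Etv1 was -2.03 (SE 0.99, unadjusted p = 0.0549, adjusted p = 0.845, edgeR). No member had an unadjusted p under 0.05 there, against 5.96% of genes. Without C13 sham replicate 2 it was -3.43 (unadjusted p = 0.00494, adjusted p = 0.644), and without DMSO TDP-43 replicate 3 it was -1.46 (unadjusted p = 0.174, adjusted p = 0.848).

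A fit of nascent reads against the other reads of the same libraries asked whether the nascent part moved on its own. For Etv1 the averaged C13 term was -2.68 on the log2 scale (SE 1.12, unadjusted p = 0.0292, adjusted p = 1 in edgeR). Called genes were 0% for C13 and 0.0141% for TDP-43, and 0 of the 7 tested members passed in either. The next member in size was Dusp4, at -1.53 (SE 1.08, unadjusted p = 0.176, adjusted p = 1). Over 15 alternatives the Etv1 term ran from -3.53 to -1.83 (unadjusted p from 0.00207 to 0.171, adjusted p at least 0.837, edgeR). The value nearest 0, -1.83, came from leaving out C13 sham replicate 3 and DMSO TDP-43 replicate 3 together (unadjusted p = 0.171, adjusted p = 0.964).

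**Figure D3:**
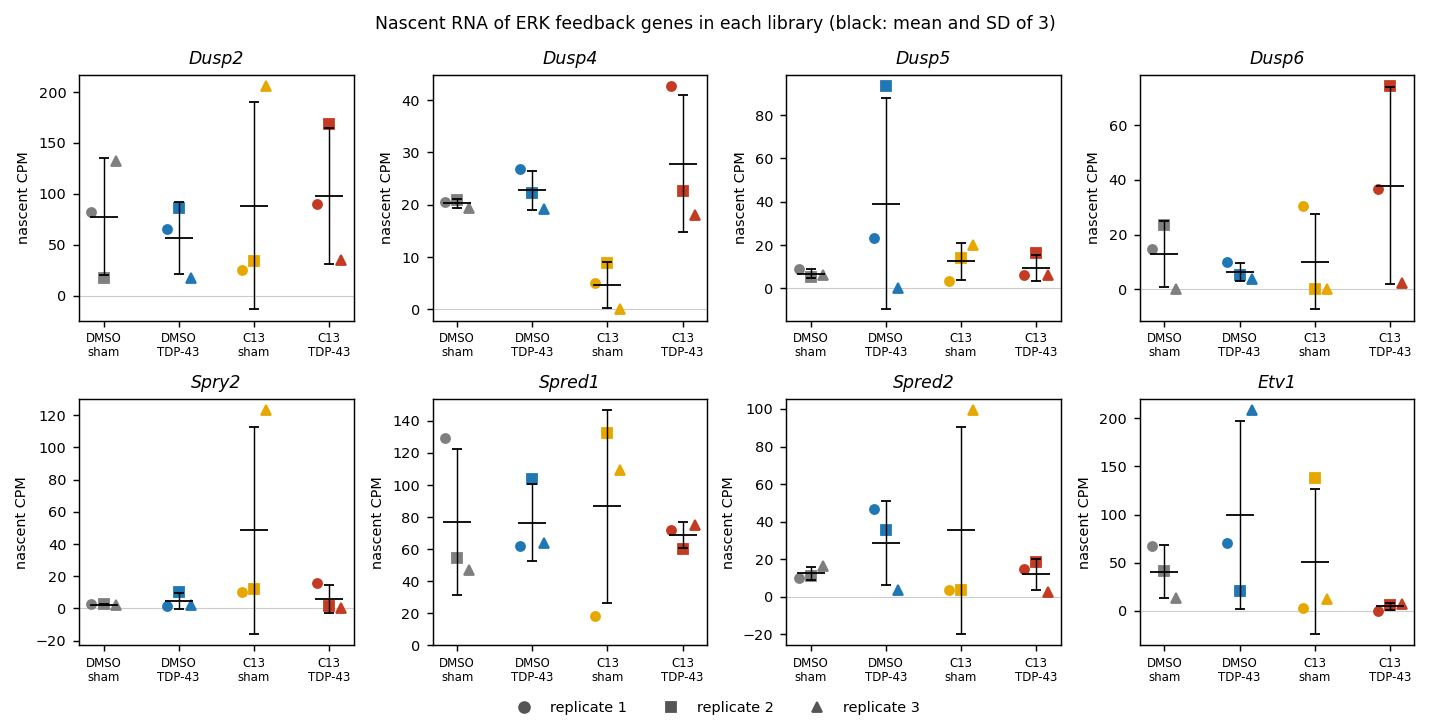
Nascent RNA of 8 members in each library, in CPM on linear axes, by group; points are libraries and black bars the mean and SD of 3, which can reach under 0 where libraries differ widely. Etv1 lies between 0 and 7.25 CPM in the 3 C13 TDP-43 libraries and between 20.3 and 208.1 CPM in the 3 DMSO TDP-43 libraries.

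In total RNA of TDP-43-treated cells, 3 of 9 tested members had an unadjusted p under 0.05 for C13 against DMSO, where the share of all genes was 5.98%. These were Spred2, Dusp4 and Dusp1, of which Dusp1 had reads in 1 of these 6 libraries. Spred2, the broadly expressed Spred protein, was 18.4, 14.3 and 19.4 CPM with DMSO and 10.2, 11.1 and 4.35 CPM with C13. The log2 fold change was -1.02 (SE 0.43, unadjusted p = 0.0300, adjusted p = 0.833, edgeR). Dusp4, the nuclear phosphatase of ERK, p38 and JNK, went the other way, with 5.95, 7.77 and 6.46 CPM with DMSO and 12.9, 13.3 and 17.9 CPM with C13. Its log2 fold change was 1.13 (SE 0.52, unadjusted p = 0.0478, adjusted p = 0.833). Spred1 was 104.9, 95.6 and 106.8 CPM with DMSO and 61.1, 85.6 and 85.2 CPM with C13, a log2 fold change of -0.41 (SE 0.22, unadjusted p = 0.0808, adjusted p = 0.841), and of -0.25 without C13 TDP-43 replicate 1. Dusp4, Spred1 and Spred2 were thus the 3 of 9 members whose replicates did not overlap, against 13.4% of all genes.

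With sham aggregates, C13 against DMSO gave another order of members. Spred1 was 67.4, 70.4 and 67.6 CPM with DMSO and 83.2, 82.3 and 123.5 CPM with C13, so that all C13 libraries were above all DMSO libraries. The log2 fold change was 0.49 (SE 0.22, unadjusted p = 0.0380, adjusted p = 0.803, edgeR). Without C13 sham replicate 3, the highest library, it was 0.28 (unadjusted p = 0.212, adjusted p = 0.805). Spry2, which restrains growth factor receptor signalling, was 0.697, 0.920 and 1.09 CPM with DMSO and 1.96, 2.32 and 3.15 CPM with C13. Its log2 fold change was 1.45 (SE 0.99, unadjusted p = 0.161, adjusted p = 0.895). Dusp5, a nuclear phosphatase that binds ERK, was 3.20, 4.52 and 4.66 CPM with DMSO and 6.41, 5.84 and 8.20 CPM with C13, a log2 fold change of 0.72 (SE 0.51, unadjusted p = 0.178, adjusted p = 0.901). With Dusp1, which was lower with C13 in all libraries, these were the 4 of 9 members whose replicates did not overlap, against 10.1% of genes. Spred1 and Dusp1 (unadjusted p = 0.0295, adjusted p = 0.801) were the 2 with an unadjusted p under 0.05, against 6.1% of genes.

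Nascent RNA of the sham arm gave a different member, Dusp4. Nascent Dusp4 was 20.6, 21.0 and 19.3 CPM with DMSO, a narrow range, and 5.07, 8.85 and 0 CPM with C13. The C13 values rest on 3, 5 and 0 nascent reads among 67, 126 and 938 total reads. The log2 fold change was -2.09 (SE 1.34, unadjusted p = 0.136, adjusted p = 0.787, edgeR). Dusp4 was the 1 of 7 tested members whose replicates did not overlap, against 14.3% of genes. No tested member had an unadjusted p under 0.05, against 6.89% of genes. Total Dusp4 in C13 sham was 3.87, 6.35 and 21.6 CPM, and replicate 3 held both the highest total and the lowest nascent value of the 12 libraries.

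Nascent Spry2 was below the filter and was compared by permutation. It was 2.47, 2.71 and 1.84 CPM in DMSO sham, 1.67, 10.5 and 1.93 CPM in DMSO TDP-43, and 15.9, 1.62 and 0 CPM in C13 TDP-43. In C13 sham it was 10.1, 12.4 and 123.0 CPM, all above the DMSO sham libraries. The mean was 27.2 CPM over the C13 libraries and 3.51 CPM over the DMSO libraries, a difference of 23.7 CPM (two-sided exact permutation p = 0.145 over 400 arrangements, 0.87 after adjustment over 6 such tests). Without C13 sham replicate 3 the difference was 5.03 CPM (exact permutation p = 0.155). The 62 nascent Spry2 reads of that library were the most of any library for this gene. Nascent Dusp1 and Spry1 had reads in 1 library each, and every exact permutation p was 1.

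TDP-43 was compared with sham aggregates in DMSO-treated cells next. In total RNA, Spred1 was 67.4 to 70.4 CPM with sham and 95.6 to 106.8 CPM with TDP-43, a log2 fold change of 0.58 (SE 0.22, unadjusted p = 0.0172, adjusted p = 0.999, edgeR). It was the 1 of 9 members with an unadjusted p under 0.05, against 4.36% of genes. Spred2 was 9.66, 11.1 and 11.7 CPM with sham and higher in all 3 libraries with TDP-43, by 0.68 on the log2 scale (SE 0.42, unadjusted p = 0.127, adjusted p = 0.999). Dusp5 was 6.51, 13.01 and 5.28 CPM with TDP-43, all above the sham libraries, a log2 fold change of 1.00 (SE 0.52, unadjusted p = 0.0704, adjusted p = 0.999). Without DMSO TDP-43 replicate 2 the Dusp5 value was 0.51 (unadjusted p = 0.394). Dusp4 was 9.76, 8.23 and 9.47 CPM with sham and lower in all TDP-43 libraries, by -0.44 on the log2 scale (SE 0.52, unadjusted p = 0.405, adjusted p = 0.999). These 4 of 9 members did not overlap, against 11.9% of genes.

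In nascent RNA of the same arm, Dusp5 had the smallest p. Nascent Dusp5 was 9.07, 5.07 and 6.45 CPM with sham and 23.4, 93.6 and 0 CPM with TDP-43. The TDP-43 libraries lay on both sides of the sham libraries. The log2 fold change of 2.50 (SE 1.53, unadjusted p = 0.120, adjusted p = 1.000, edgeR) was 0.76 without DMSO TDP-43 replicate 2 (unadjusted p = 0.672). The member count was 0 of 7 both for an unadjusted p under 0.05, against 3.19% of genes, and for replicates without overlap, against 10.3%. An opposite-strand gene overlaps Dusp5 in the annotation, and the strand rule of the counting is not given in the sources used here.

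With C13 present, TDP-43 against sham gave few separations among the members. Total Spry2 was 1.96, 2.32 and 3.15 CPM with sham and 1.25, 0.895 and 1.77 CPM with TDP-43. It was the 1 of 9 members without overlap, against 12.8% of genes, with a log2 fold change of -0.93 (SE 0.97, unadjusted p = 0.357, adjusted p = 0.865, edgeR). No member had an unadjusted p under 0.05 in total RNA, against 8.84% of genes. The smallest was that of Spred2, at -0.66 (SE 0.42, unadjusted p = 0.140, adjusted p = 0.697), which was -0.19 without C13 sham replicate 3. In nascent RNA, Etv1 was the 1 of 7 members with an unadjusted p under 0.05, against 8.45%, at -3.43 (SE 1.49, unadjusted p = 0.0335, adjusted p = 0.570). That value rested on C13 sham replicate 2, at 138.0 CPM, and was -0.62 without it (unadjusted p = 0.674). Nascent Dusp4 was the 1 of 7 without overlap, against 13.1%, with 42.8, 22.7 and 18.1 CPM in C13 TDP-43 over the low C13 sham values given above.

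**Figure D4:**
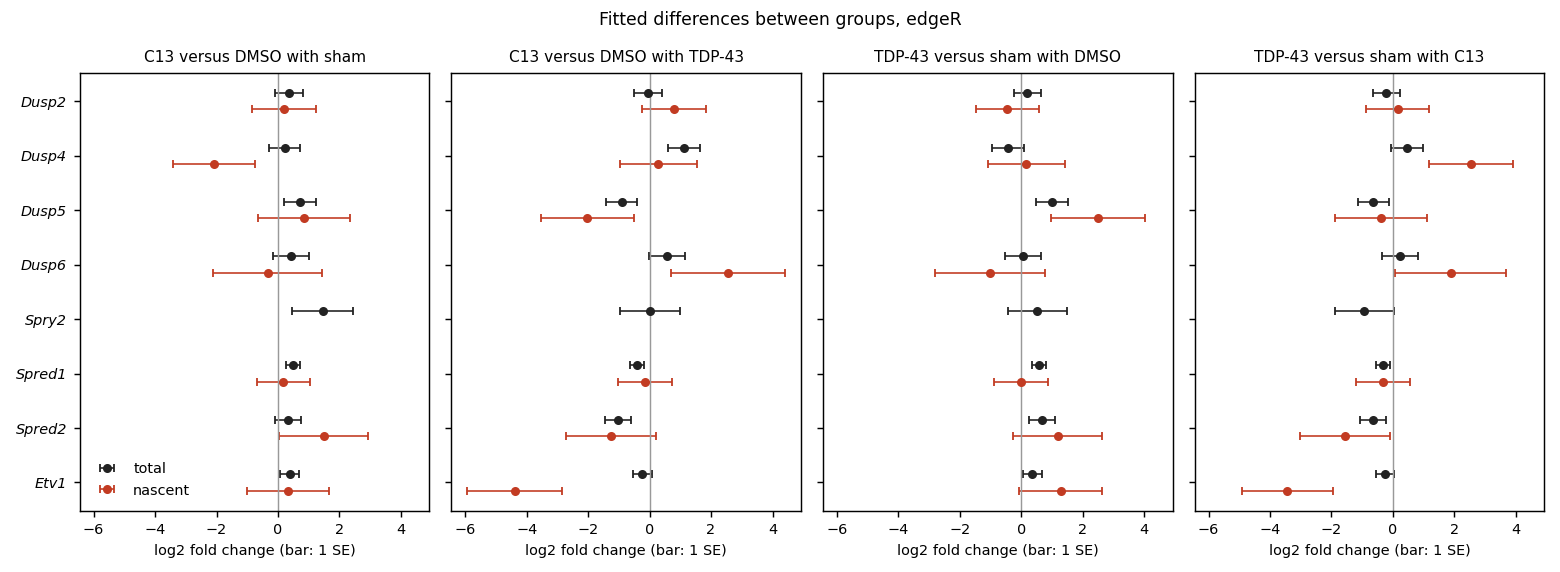
Log2 fold changes of 8 members in 4 comparisons by edgeR, with bars of 1 SE, for total RNA (black) and nascent RNA (red); Dusp1 and Spry1 are left out, and Spry2 has no nascent value. Bars are wider in nascent RNA, and the value farthest from 0 is that of nascent Etv1 for C13 against DMSO with TDP-43, at -4.39.

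Averaged over both drugs, TDP-43 against sham gave 0 members with an unadjusted p under 0.05 in nascent RNA, against 5.59% of genes, and 0 in total RNA, against 4.73%. The smallest p in nascent RNA was that of Dusp4, at 1.35 on the log2 scale (SE 0.91, unadjusted p = 0.156, adjusted p = 0.948, edgeR). In total RNA it was that of Spred1, at 0.13 (SE 0.15, unadjusted p = 0.403, adjusted p = 0.980), a value that was 0.24 without C13 sham replicate 3, 0.21 without C13 TDP-43 replicate 1 and 0.08 without C13 sham replicate 1. For C13 against DMSO in total RNA, averaged over both aggregates, Dusp1 alone of 9 members had an unadjusted edgeR p under 0.05, against 4.08% of genes. Its p was 0.00502 (adjusted p = 0.999, edgeR). Without DMSO TDP-43 replicate 3, Dusp1 was at 0 in both TDP-43 groups, so the averaged fit could not judge it. In the sham arm, where that library's reads do not enter the difference, its unadjusted p was 0.0295 (adjusted p = 0.801, edgeR). No fold is given for Dusp1, since all 6 C13 libraries were at 0 and the DMSO reads came from 4 libraries.

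For the Spred genes and Dusp5, the C13 difference in total RNA was above 0 under sham and below 0 under TDP-43. Etv1 (0.38 under sham, -0.24 under TDP-43) and Dusp2 (0.36 and -0.05) changed sign too, with overlapping replicates in both arms. No interaction passed the adjusted threshold. For Spred2 the sham value rested on C13 sham replicate 3: it was 0.32 with that library and -0.14 without it. Spred1 was higher with C13 than with DMSO under sham and lower under TDP-43, with no overlap of replicates in either arm. The interaction, the C13 difference under TDP-43 minus that under sham, was -0.90 on the log2 scale (SE 0.31, unadjusted p = 0.0103, adjusted p = 0.470 in edgeR). It was -1.34 for Spred2 (SE 0.60, unadjusted p = 0.0403, adjusted p = 0.590) and -1.64 for Dusp5 (SE 0.73, unadjusted p = 0.0395, adjusted p = 0.589). These were 3 of 9 members with an unadjusted p under 0.05, against 7.96% of genes. Without C13 sham replicate 3 the values were -0.68 for Spred1 (unadjusted p = 0.0346), -0.87 for Spred2 (unadjusted p = 0.149) and -1.48 for Dusp5 (unadjusted p = 0.0753), so that 1 of these 3 was left under 0.05. Group means show the same: Spred1 was 68.4 CPM ± 1.66 (SD, n = 3) in DMSO sham, 102.4 CPM ± 5.98 (SD, n = 3) in DMSO TDP-43, 96.3 CPM ± 23.6 (SD, n = 3) in C13 sham and 77.3 CPM ± 14.0 (SD, n = 3) in C13 TDP-43. In nascent RNA, Etv1 was the 1 of 7 members with an unadjusted interaction p under 0.05, against 7.59% of genes, at -4.72 (SE 2.00, unadjusted p = 0.0297, adjusted p = 0.621), and at -1.88 without C13 sham replicate 2.

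Nascent Spred1 showed no such separation. It was 129.5, 54.4 and 47.0 CPM in DMSO sham, 61.9, 104.0 and 63.6 CPM in DMSO TDP-43, 18.6, 132.7 and 109.1 CPM in C13 sham, and 72.1, 59.9 and 74.9 CPM in C13 TDP-43. All 4 groups overlapped. Nascent Spred2 ran from 2.42 CPM in C13 TDP-43 replicate 3 to 99.2 CPM in C13 sham replicate 3, and its groups overlapped in each pairwise comparison.

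One library held many of the highest values. C13 sham replicate 3 held the highest total CPM of 6 of the 9 tested members, as it did for 14.8% of all tested genes. Without it the C13 sham mean was 82.7 CPM for Spred1 in place of 96.3, 9.78 CPM for Spred2 in place of 13.5, 5.11 CPM for Dusp4 in place of 10.6 and 52.5 CPM for Etv1 in place of 66.6. It is also the library with the most mitochondrial ribosomal RNA, and the part of that in these levels was not tested.

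Dusp2 and Dusp6 were the tested members whose replicates overlapped in every pairwise comparison in both tables. Total Dusp2 ran from 4.85 to 10.2 CPM with group means of 6.42, 7.39, 8.26 and 7.15 CPM in DMSO sham, DMSO TDP-43, C13 sham and C13 TDP-43. Its log2 fold changes in total RNA lay between -0.21 and 0.36 over the 4 pairwise comparisons, each with an SE of 0.45. Total Dusp6 had group means of 4.63, 4.83, 6.17 and 7.20 CPM, with a highest library of 12.5 CPM in C13 TDP-43 replicate 2. All counts of Dusp6 were even. Nascent Dusp6 was 36.7, 74.5 and 2.42 CPM in C13 TDP-43 and 10.0, 5.23 and 3.85 CPM in DMSO TDP-43.

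The pathway around the members was described by 3 further lists. Of 25 genes of the ERK cascade, from Csf1r to the ERK kinases, 24 were tested in total and 23 in nascent RNA. Of the 30 other ERK targets 26 and 15 were tested, and of 14 other MAP kinase phosphatases 11 and 9. In each comparison 0 of them passed the adjusted threshold in edgeR in either table. For C13 averaged over both aggregates in total RNA, 8 cascade genes had values above 0 and 16 below, with a median log2 fold change of -0.09 against -0.01 for all genes. For TDP-43 averaged over both drugs, 13 were above 0 and 11 below, with a median of 0.07 against -0.01. The adaptor gene Gab2 had the smallest p of the cascade for C13, at 0.47 (SE 0.17, adjusted p = 0.999), with group means of 105.9 CPM ± 15.2 (SD, n = 3) in DMSO sham and 145.8 CPM ± 23.3 (SD, n = 3) in C13 sham. Pea15a, which holds ERK in the cytoplasm, was next, at -0.43 (SE 0.17, adjusted p = 0.999). Nras, one of the Ras genes, had the smallest p for TDP-43, at 0.64 (SE 0.17, unadjusted p = 0.00154, adjusted p = 0.828), and Map2k2, which encodes a MEK kinase, followed at -0.29 (SE 0.15, adjusted p = 0.948).

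Among the ERK targets, the AP-1 gene Fosl2 was lower with TDP-43, at -0.96 (SE 0.32, unadjusted p = 0.00988, adjusted p = 0.948), and higher with C13, at 0.65 (SE 0.32, adjusted p = 0.999), neither past the threshold. The cyclin gene Ccnd1 was at -0.31 for C13 (SE 0.14, adjusted p = 0.999), and Mcl1, a survival gene, was at 0.30 for TDP-43 (SE 0.16, adjusted p = 0.948). Of the other phosphatases, Dusp3 was at -0.29 for C13 (SE 0.16, adjusted p = 0.999) and at 0.19 for TDP-43 (SE 0.16, adjusted p = 0.948). These averages join arms of opposite direction: Dusp3 was 452.0 CPM ± 26.9 (SD, n = 3) in DMSO sham and 414.4 CPM ± 33.4 (SD, n = 3) in DMSO TDP-43, but 297.9 CPM ± 98.9 (SD, n = 3) in C13 sham and 422.8 CPM ± 16.7 (SD, n = 3) in C13 TDP-43. Ptpn7, a phosphatase of blood cells, was at -0.27 for C13 (SE 0.18, adjusted p = 0.999) and at 0.33 for TDP-43 (SE 0.18, adjusted p = 0.948). Its group means were 136.5 CPM ± 38.0 (SD, n = 3) in DMSO sham, 111.1 CPM ± 22.6 (SD, n = 3) in DMSO TDP-43, 73.4 CPM ± 7.24 (SD, n = 3) in C13 sham and 142.3 CPM ± 42.4 (SD, n = 3) in C13 TDP-43, again with opposite directions in the 2 arms.

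The genes whose total RNA followed the 3 most abundant members most closely were found by Pearson's r of log2(CPM + 1) over the 12 libraries, which share depth and library effects. For Spred1 these were Fblim1 (r = 0.942), Itpkb (r = 0.937) and Dmxl1 (r = 0.909). For Etv1 they were Arl5b (r = 0.914), Chpf (r = 0.893) and Trps1 (r = 0.890). For Spred2 they were Arid5b (r = 0.915), Isoc1 (r = 0.911) and Ctdsp2 (r = 0.904). These are the highest of 11827 values each and are given as a description.

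The members lie apart in the genome (GRCm38). Positions are GENCODE spans, and that of Dusp1 runs far upstream of its RefSeq start window. Dusp1 (ENSMUSG00000024190) is at chr17:26505590-26562128, Dusp2 at chr2:127336159-127338376, Dusp4 at chr8:34807297-34819894, Dusp5 at chr19:53529109-53542431 and Dusp6 at chr10:99263231-99267489. Spry1 is at chr3:37639947-37644598, Spry2 at chr14:105891947-105896819, Spred1 at chr2:117121374-117182279, Spred2 at chr11:19924375-20024026 and Etv1 at chr12:38779380-38870484. The genes with the highest nascent shares, Dusp2 (2218 bases) and Dusp6 (4259 bases), are short. Those with low shares, Spred1 (60906 bases) and Etv1 (91105 bases), are long. Dusp4 (12598 bases) and Dusp5 (13323 bases) lay between Dusp6 and Spred1 in length and in share. Spred2, of 99652 bases, also lay between Dusp6 and Spred1 in share. Length and share were not compared over all genes.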

How the data were processed

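Per the labels' protocols, SLAM-seq libraries of mRNA 3′ ends were made from 12 cultures in 4 groups. Deposited were 2 tables of unnormalised read counts made by the authors, for nascent and for total reads of 30994 Ensembl genes. The build named is GRCm38, per the submitters' processing notes. Aligner, counter and nascent-read rule were not given in the sources used here. Symbols came from a GENCODE annotation of that build and matched 30922 genes.

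Genes were kept by filterByExpr (7078 nascent, 11827 total), scaled by TMM within each table and tested with edgeR 4.0.16 in R 4.3.3 by the quasi-likelihood test, with 12 libraries in 1 fit of 4 group means and Benjamini-Hochberg adjustment over all genes at 0.05. Scaling within the nascent table removes any global change in labelling. A replicate pair differed by a chi-square of at least 70.5 per degree of freedom, so none was 1 library deposited again. Nascent and other reads were also put in 1 fit with library as a term. Members below the nascent filter were tested by exact permutation within arms. The test was checked on simulated counts.

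The members and lists were chosen with earlier results of these data known. Statistics are given for the member with the smallest p in each comparison and table and for those without overlap in both tables. Of each list, the 2 genes with the smallest p in each averaged comparison of total RNA are named. Other members without overlap in total RNA, and those with a small interaction p, were named after their values were seen. Sequences are from GENCODE transcripts and RefSeq promoters. Alternatives were DESeq2 1.42.0, its size factors, no filter, a replicate block, only the groups compared, leaving out each library or C13 sham replicate 3 with DMSO TDP-43 replicate 3, library sizes of the total table, and counts divided by their common factor.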

Additional observations from a re-analysis of the deposited data

Results flagged for a closer look

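Total Spred1 was flagged because C13 and DMSO were ordered in opposite ways in the aggregate arms: all C13 libraries were above all DMSO libraries with sham and below them with TDP-43. The interaction was -0.90 on the log2 scale (SE 0.31, unadjusted p = 0.0103, adjusted p = 0.470 in edgeR's quasi-likelihood test), so it did not pass the threshold. Such an opposite order without overlap was found in 146 of 11827 genes, or 1.23%.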

How the results depend on the processing

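The 49 results and 875 alternatives leave out the sham-arm value of Spred2 given above. Of these results, 7 are nascent shares, which were asked only to stay within the SD of the 12 libraries. All did, although Dusp5 (5.92% without DMSO TDP-43 replicate 2) and Dusp4 (6.09% on summed reads) fell under 6.20%. Each other result kept its direction and its side of 0.05 in adjusted p, or in exact p for Spry2. This was a weak demand, as the smallest adjusted p of a member in the main fit was 0.470 (Spred1 interaction, edgeR). The lowest exact permutation p of Spry2 was 0.05, which was counted as not under the threshold. Unadjusted p-values did cross 0.05, as given above for Spred1 under sham. In all alternatives run, 0 members were called. C13 sham replicates 2 and 3, the libraries that stood apart on the first principal component, were each left out alone but not together. The interaction of Spred1 ranged from -0.99 to -0.63 (adjusted p 0.212 to 0.715). Nascent Etv1 for C13 against DMSO with TDP-43 ranged from -4.87 to -3.23 (adjusted p 0.111 to 1). With the replicate number as a block the count of members called was 0 in each comparison. Deviations of same-numbered libraries from their group means correlated at -0.028 to 0.060 in nascent and -0.069 to 0.233 in total RNA (means 0.011 and 0.049, against -0.006 and -0.025 for other numbers). As not every pair was over 0.1, the numbers were not taken as a pairing. As a hint from the data, 6 of 12 nascent and 8 of 12 total libraries correlated best with their own number. Nascent depth limits the low members: 254 nascent reads of Dusp4 and 121 of Spry2 were counted over all libraries. For the fit of nascent against other reads, DESeq2, its size factors and the block were not run.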
